A study of Mus musculus with 9 samples.

Results

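The genes described here are the potassium channel genes of the mouse, chosen by name: every row of the deposited gene tables whose symbol begins with Kcn. There were 94 such genes among the 22322 genes listed, and they fell into 21 subfamilies, with 77 genes for pore-forming subunits and 17 for accessory or regulatory proteins. The rule used the symbol alone for membership, and the counts of these libraries to say which members were detected. A member was called detected if its mean reached 1 CPM (a read count scaled by library size) in at least 1 group. By that measure 26 members were detected, 60 had some counts but stayed under 1 CPM in each group, and 8 had 0 counts in all 9 libraries.

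Bulk RNA was sequenced from R1 cells, a mouse embryonic stem cell line, that had been kept in suspension without leukaemia inhibitory factor until day 6, when they form embryoid bodies. All cells carried a short hairpin and are labelled wild type in genotype: in 3 libraries it was the control (sh-ctrl), in 3 it targeted Pfkp, the platelet isoform of the glycolytic enzyme phosphofructokinase (sh-Pfkp), and in 3 it targeted Lin41, the RNA-binding protein listed under the symbol Trim71 (sh-Lin41). The labels name 1 hairpin per target and no rescue, so an effect of the knockdown and an effect of that hairpin cannot be told apart. Nothing in them says that replicates were grown separately. The p-values therefore cover the spread among the sequenced libraries, which may be technical.

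Potassium channels let potassium ions leave or enter the cell along their gradient and so set the membrane potential. Voltage-gated members open on depolarisation, inward rectifiers and tandem-pore leak channels hold the resting potential, and other classes respond to internal calcium or sodium. Stem cells are not electrically excitable in the way neurons and cardiomyocytes are, but these channels also take part in cell volume control and in the cell cycle, and most subtypes are best known from nerve, heart and epithelia.

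Total counts per library ran from 15495194 to 20607683. Pfkp stood at 248, 245 and 248 CPM in sh-ctrl and at 102, 101 and 105 CPM in sh-Pfkp libraries, a log2 change of -1.27 ± 0.03 (standard error), and Trim71 stood at 273, 264 and 269.7 CPM in sh-ctrl and at 165, 158 and 156 CPM in sh-Lin41 libraries, a log2 change of -0.75 ± 0.03. Each hairpin thus went with a lower level of its own target. The other target also differed from sh-ctrl. Trim71 was higher in sh-Pfkp libraries (log2 change 0.39 ± 0.02), and Pfkp was lower in sh-Lin41 libraries (-0.12 ± 0.02). All 8 pluripotency markers listed were above 1 CPM in every group, and their summed level was 4732 to 4809 CPM in sh-ctrl, 4287 to 4375 CPM in sh-Pfkp and 5631 to 5660 CPM in sh-Lin41 libraries. By gene, 3 of the 8 were called higher and 5 lower with the Pfkp hairpin, and 6 higher and 1 lower with the Lin41 hairpin. The 10 neuronal markers summed to 412 to 417, 488 to 502 and 382 to 387 CPM in the same order. The higher sum in sh-Pfkp came mostly from Stmn2, whose mean was 257 CPM with the control hairpin and 369 CPM with the Pfkp hairpin, while of the 8 tested neuronal markers 2 were higher and 4 lower with the Pfkp hairpin (median log2 change -0.55; Elavl3 went from a mean of 44.3 to 15.3 CPM) and 1 was higher and 4 lower with the Lin41 hairpin. Cardiomyocyte markers summed to 12.7 to 14.1, 20.8 to 21.2 and 12.9 to 15.1 CPM, with 2 of 4 tested higher and 1 lower with the Pfkp hairpin and 1 each way with the Lin41 hairpin. Smooth muscle and stromal markers summed to 4.80 to 5.15, 20.8 to 23.6 and 3.77 to 4.40 CPM, with 5 of 7 tested higher and 1 lower with the Pfkp hairpin and 2 higher and 1 lower with the Lin41 hairpin. Those of endothelium and blood, of which Hbb-bh1 had 0 counts throughout, summed to 47.5 to 47.8, 38.6 to 42.4 and 32.0 to 35.6 CPM, most of it Pecam1. Of 3 tested, 2 were higher and 1 lower with the Pfkp hairpin and 0 higher and 1 lower with the Lin41 hairpin. Of all tested genes, 28.3% were higher and 28.3% lower with the Pfkp hairpin, and 26.9% higher and 27.3% lower with the Lin41 hairpin. These shares are the background for the marker counts of every list. Several of the counts lie near them, so the counts are not read as changes in cell type. Sums and single markers thus differed between the hairpin groups, at times in opposite directions within a list, and their part in the channel results was not tested. In bulk RNA, fewer cells of a type and less RNA per cell cannot be told apart.

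The potassium channel genes as a set were sparsely expressed. The detected share, 27.7% of the members, was below the 55.9% of all listed genes that reached the same level, while the share with 0 counts, 8.51%, was also below the 19.2% of all listed genes. Between these lay the 60 members with some reads but under 1 CPM. Summed over all 94 members, the level was 224 ± 7.58 CPM (mean ± SD, n = 3) in sh-ctrl, 180 ± 3.46 CPM in sh-Pfkp and 194 ± 4.99 CPM in sh-Lin41 libraries. The members with 0 counts were Kcna10, Kcne1, Kcnip1, Kcnj1, Kcnk10, Kcnk15, Kcnk16 and Kcnq1. For them a count of 0 allows up to 3 counts per library, or 0.145 to 0.192 CPM depending on the library, counting error only.

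**Figure D1:**
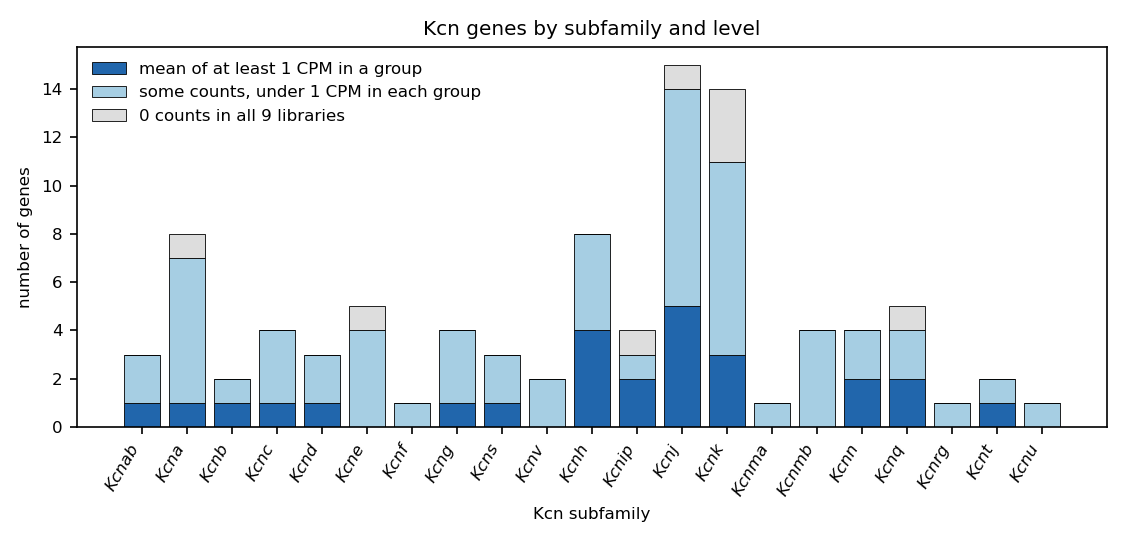
Number of Kcn genes in each of the 21 subfamilies, divided into those with a mean of at least 1 CPM in a hairpin group (26 genes), those with counts but under 1 CPM in each group (60 genes) and those with 0 counts in all 9 libraries (8 genes). The inward rectifiers (Kcnj, 5 of 15) and the ether-a-go-go family (Kcnh, 4 of 8) hold the most detected members.

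Detection was spread over 14 of the 21 subfamilies, usually as a single member of each. In the large Kcna subfamily, the Shaker-related voltage-gated pore subunits, only Kcna7 of 8 genes reached 1 CPM in a group. No member was detected among the single-span Kcne subunits, the silent Kcnf1 and Kcnv genes, the calcium-activated large-conductance pore gene Kcnma1, its Kcnmb beta subunits, the assembly regulator Kcnrg or the sperm channel gene Kcnu1. Per gene length, in FPKM (fragments scaled by gene length and library size), the order over the 9 libraries was led by the tandem-pore leak channel genes Kcnk5 at 15.2 and Kcnk1 at 6.05 FPKM. Kcnh2 followed at 4.92 FPKM, and Kcnd1 stood at 3.22 FPKM. Kcnk5 alone made up 22.2 to 25.1% of the summed FPKM of all members in sh-ctrl libraries, 29.0 to 29.8% in sh-Pfkp libraries and 22.4 to 24.1% in sh-Lin41 libraries.

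The window of 250 bases before the annotated start is shown for the 2 members highest in FPKM, which differ in base composition. Sequences are from RefSeq, build GRCm38.p6, 5′ to 3′ along the gene, and capitals mark CpG dinucleotides. The Kcnk5 window lies at chr14:20181783-20182032 (minus strand) and holds 19 CpG. The Kcnk1 window lies at chr8:125994852-125995101 (plus strand) and holds 0.
Kcnk5: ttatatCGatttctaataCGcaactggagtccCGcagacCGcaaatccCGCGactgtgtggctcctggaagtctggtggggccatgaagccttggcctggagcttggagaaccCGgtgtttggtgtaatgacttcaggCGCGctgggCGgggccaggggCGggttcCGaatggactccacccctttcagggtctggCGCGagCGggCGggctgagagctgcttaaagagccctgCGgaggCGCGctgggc
Kcnk1: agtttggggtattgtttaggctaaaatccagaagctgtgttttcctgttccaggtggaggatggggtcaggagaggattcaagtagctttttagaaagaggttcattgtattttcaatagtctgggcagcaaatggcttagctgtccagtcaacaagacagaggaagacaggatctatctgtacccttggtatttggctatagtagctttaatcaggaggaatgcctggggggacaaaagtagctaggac
Among the 69 members that matched the promoter table, the ratio of observed to expected CpG had a median of 0.516 over 15 detected genes, 0.432 over 48 genes with traces and 0.264 over 6 genes with 0 counts, beside 0.379 over all genes in that table (a gene with several starts counts once, at their mean). The Kcnk1 window held 0 CpG, and the gene ranked next to Kcnk5 in FPKM. A link between CpG content and level was not tested.

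**Figure D2:**
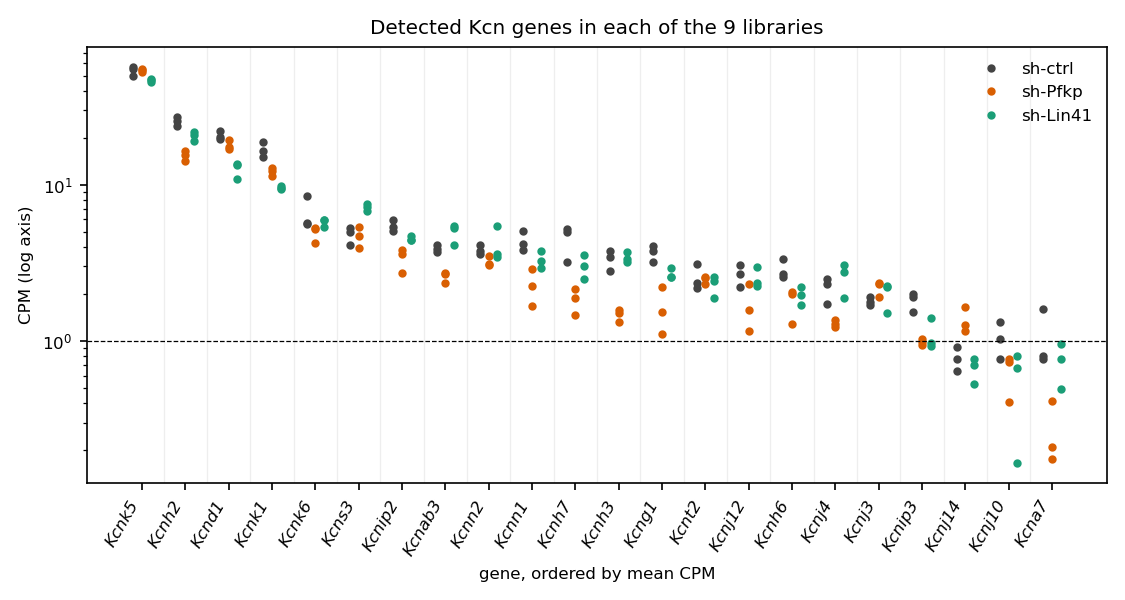
CPM (log axis) of 22 of the 26 detected Kcn genes in each of the 9 libraries, ordered by mean CPM; each point is 1 library and the dashed line is 1 CPM. Kcnk5 lies at 45.6 to 56.9 CPM, and Kcnh2, Kcnd1 and Kcnk1 are the other plotted genes that reach a mean of 10 CPM in a group.

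The comparisons with sh-ctrl ask which channel genes differ when Pfkp or Lin41 is knocked down, and the comparison of the knockdowns asks where they differ from each other. The 3 comparisons share libraries, so their values are given side by side. Enough counts for the test, edgeR's quasi-likelihood test with Benjamini-Hochberg adjustment over 13158 genes, were found for 34 members, 36.2% against 58.9% of all listed genes. A member that passed through its own high group could differ more readily, so counts over these 34 describe the tested members and not all 94. Log2 changes are given ± standard error. Where a call below failed on leaving out a library, libraries were left out 1 at a time.

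With the Pfkp hairpin, lower levels prevailed among the tested channel genes. Against sh-ctrl, 19 of 34 members (55.9%) were called lower at an adjusted p under 0.05, where 28.3% of all tested genes were lower, and 2 (5.88%) were higher, where 28.3% of all tested genes were higher. The median log2 change was -0.66 over the 34 members and -0.005 over all tested genes. At a change of at least 2-fold, 6 members were lower (background 4.26% of all genes) and 0 were higher (background 2.26%). Kcnj14, 1 of the 2 called higher, had a log2 change of 0.81. Among the 6 were Kcna7, Kcnab2, Kcng1, Kcnh3 and Kcnh7. Members were also set beside genes of like level, a division chosen after the values were seen. Under 1 CPM, 2 of 11 members and 19.0% of 1065 genes were lower, and 1 member and 12.7% of the genes were higher. Between 1 and 10 CPM, 14 of 18 members and 32.2% of 3463 genes were lower, and 0 members and 15.4% of the genes were higher. Over 10 CPM, 3 of 5 members and 28.0% of 8630 genes were lower, and 1 member and 35.4% of the genes were higher. The lower calls thus lay mainly among members between 1 and 10 CPM, and the share lower under 1 CPM was near that of all genes there. Over wider sets of tested members the lower share was near that of all genes. With DESeq2 14 of 72 members were lower, where 19.0% of all tested genes were lower. Without a filter on low counts 19 of 86 were lower, where 20.9% of all genes were lower. The excess of lower calls thus describes the 34 members with enough counts.

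With the Lin41 hairpin, 10 of 34 members (29.4%) were lower, close to the 27.3% of all tested genes, and 2 (5.88%) were higher, against 26.9% of all genes. The median log2 change was -0.25 over the members and 0.004 over all tested genes. At 2-fold, 1 member was lower (background 2.22%), and 0 were higher (background 2.04%). Kcns3, 1 of the 2 called higher, had a log2 change of 0.57. Leaving out sh-Lin41 replicate 2 reduced the lower members to 6 of 35, where 24.8% of all genes were lower. Testing with DESeq2 reduced them to 6 of 50, where 20.8% of all genes were lower. In the direct comparison, sh-Pfkp libraries were lower than sh-Lin41 libraries for 13 members (38.2%; background 27.8%) and higher for 5 (14.7%; background 27.4%). At 2-fold, 2 members were lower (Kcna7 and Kcnh3, background 3.02%) and 2 were higher (Kcnj14 and Kcnq3, background 1.47%). With DESeq2, 10 of 69 members were lower and 5 higher in the direct comparison, where 18.2% and 20.8% of all tested genes were. Without a filter on low counts, 14 of 86 were lower, where 20.5% of all genes were lower. In both of these runs the lower share of members was below that of all genes.

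Since both comparisons with control use the same sh-ctrl libraries, no overlap between them is read as a result. Side by side, members called lower with each hairpin included Kcnd1, Kcng1, Kcnh2, Kcnh6, Kcnh7, Kcnip3 and Kcnk1. Members lower with the Pfkp hairpin, not called with the Lin41 hairpin and called in the direct test between the knockdowns included Kcna7, Kcnab3, Kcnh3, Kcnip2, Kcnj4, Kcnj12 and Kcnn1. Calls that did not pass with DESeq2 were those of Kcnab2, Kcnd1, Kcnj4, Kcnj12, Kcnj14 and Kcnk6 with the Pfkp hairpin, of Kcng1, Kcnh6, Kcnh7 and Kcnip3 with the Lin41 hairpin, and of Kcnip2, Kcnj12 and Kcnn1 between the knockdowns (adjusted p from 0.0506 for Kcnj4 to 0.146 for Kcng1). On log2(FPKM + 0.1) with limma-trend, calls that did not pass included those of Kcnab2, Kcnd1, Kcnk6 and Kcnn1 with the Pfkp hairpin, of Kcng1, Kcnh6 and Kcnh7 with the Lin41 hairpin, and of Kcnh7, Kcnn1 and Kcnq3 between the knockdowns.

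**Figure D3:**
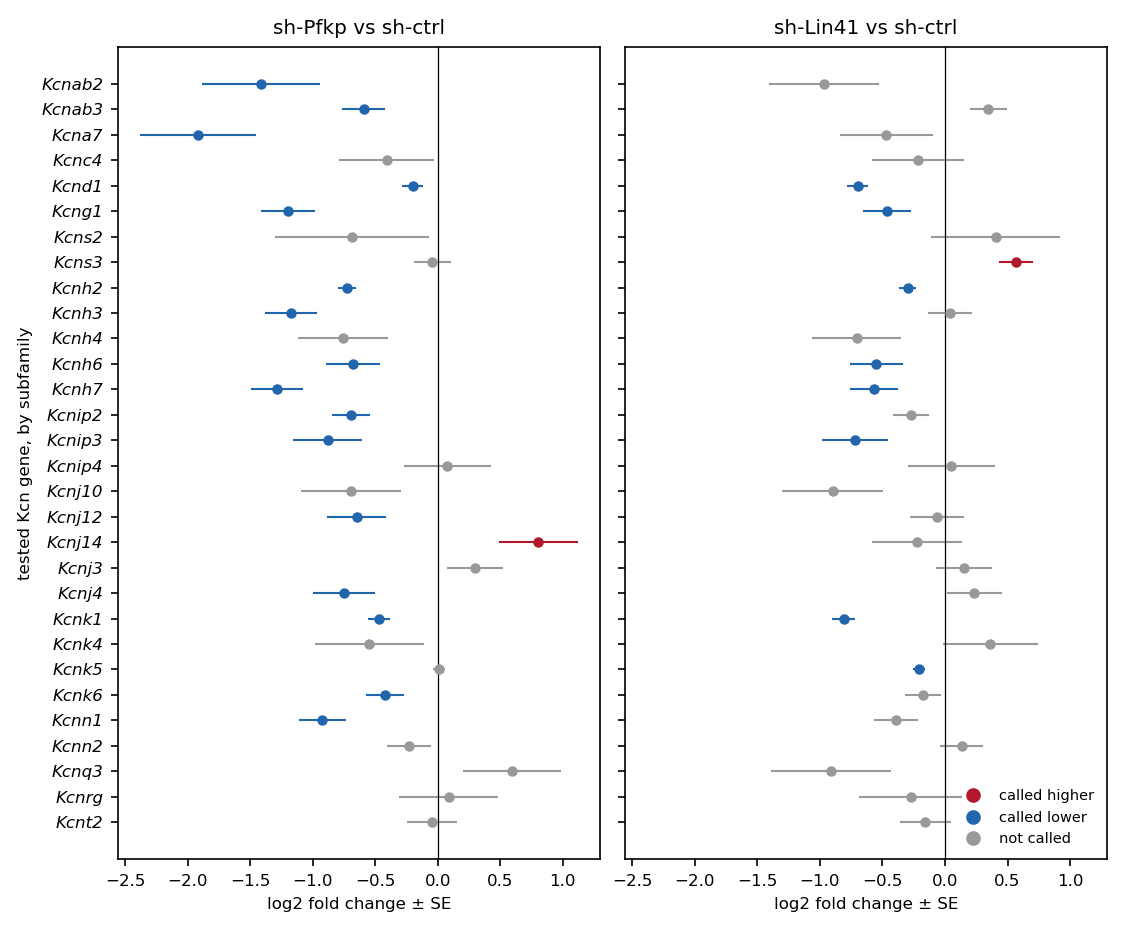
Log2 fold change with its standard error for 30 of the 34 tested Kcn genes, ordered by subfamily, with the Pfkp hairpin (left) and the Lin41 hairpin (right) against the same sh-ctrl libraries; blue marks genes called lower, red genes called higher and grey genes not called. Of those plotted, 16 genes are blue and 1 is red on the left, and 8 are blue and 1 is red on the right.

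Among voltage-gated pore genes, 9 of 13 tested fell and 1 rose with the Pfkp hairpin, and 6 fell and 1 rose with the Lin41 hairpin. Over all tested genes 28.3% were lower and 28.3% higher with the Pfkp hairpin, and 27.3% lower and 26.9% higher with the Lin41 hairpin, which is the background for the counts by family given here. Kcng1 and Kcns3 encode silent subunits, which make no channel alone and assemble with those of the Kcnb class. Kcng1 stood at 3.78, 3.20 and 4.04 CPM with the control hairpin, 1.11, 1.54 and 2.21 CPM with the Pfkp hairpin and 2.56, 2.56 and 2.92 CPM with the Lin41 hairpin. The groups were separate, with sh-Pfkp lowest and sh-ctrl highest. It fell by 1.20 on the log2 scale with the Pfkp hairpin (adjusted p = 1.75e-05) and by 0.46 with the Lin41 hairpin (adjusted p = 0.0440), and the difference between them was -0.74 ± 0.22 (adjusted p = 0.00548). The sh-Lin41 call failed on leaving out sh-ctrl replicate 1 or 3, or sh-Lin41 replicate 1 or 2 (adjusted p = 0.0950, 0.158, 0.105 and 0.107), and the difference between knockdowns on leaving out sh-Pfkp replicate 1 (adjusted p = 0.0574). Kcns3 stood at 5.32, 4.09 and 5.02 CPM with the control hairpin, 3.95, 5.38 and 4.71 CPM with the Pfkp hairpin and 6.78, 7.57 and 7.16 CPM with the Lin41 hairpin. The sh-Lin41 libraries were the high ones, and the other 2 groups overlapped. Kcns3 rose by 0.57 ± 0.14 with the Lin41 hairpin (adjusted p = 7.15e-04), and its change with the Pfkp hairpin was -0.04 ± 0.15 (adjusted p = 0.818). The direct difference was -0.61 ± 0.14 (adjusted p = 2.69e-04). With the Lin41 hairpin Kcns3 was thus called higher where Kcng1 was called lower.

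Kcnd1, a pore gene for rapidly inactivating A-type current, stood at 22.0, 19.6 and 20.2 CPM with the control hairpin, 19.5, 16.9 and 17.5 CPM with the Pfkp hairpin and 13.7, 13.5 and 10.8 CPM with the Lin41 hairpin. The groups did not overlap, with sh-Lin41 lowest. The log2 change was -0.70 ± 0.09 with the Lin41 hairpin (adjusted p = 3.50e-08) and -0.20 ± 0.08 with the Pfkp hairpin (adjusted p = 0.0393), and sh-Pfkp libraries were higher than sh-Lin41 libraries by 0.50 ± 0.09 (adjusted p = 1.27e-05). The sh-Pfkp call failed on leaving out sh-ctrl replicate 1 or 3, or sh-Pfkp replicate 2 or 3 (adjusted p = 0.187, 0.0599, 0.171 and 0.107).

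Of the 5 tested genes of the ether-a-go-go family, 4 fell with the Pfkp hairpin and 3 with the Lin41 hairpin. Kcnh2, Kcnh6 and Kcnh7 encode the ERG channels, of which the Kcnh2 product carries the rapid delayed rectifier current of the heart. Kcnh2 stood at 27.1, 25.4 and 23.9 CPM with the control hairpin, 16.4, 15.4 and 14.3 CPM with the Pfkp hairpin and 21.0, 21.8 and 19.2 CPM with the Lin41 hairpin. All 3 groups were separate, with sh-Pfkp lowest and sh-Lin41 between. The log2 changes were -0.73 ± 0.07 (adjusted p = 7.78e-10) and -0.30 ± 0.07 (adjusted p = 5.97e-04), and the difference between the knockdowns was -0.43 ± 0.08 (adjusted p = 1.40e-05).

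Kcnh7 stood at 3.20, 5.24 and 5.02 CPM with the control hairpin, 1.47, 1.90 and 2.15 CPM with the Pfkp hairpin and 3.01, 2.51 and 3.58 CPM with the Lin41 hairpin. The sh-Pfkp libraries were lowest, and sh-Lin41 overlapped sh-ctrl through sh-ctrl replicate 1. Its changes were -1.28 ± 0.21 (adjusted p = 4.11e-06) and -0.57 ± 0.19 (adjusted p = 0.0120). The latter failed on leaving out sh-ctrl replicate 2 or 3, or sh-Lin41 replicate 2 (adjusted p = 0.0791, 0.0743 and 0.0758). Kcnh6 fell by 0.68 (adjusted p = 0.00855) and 0.55 (adjusted p = 0.0284) on the log2 scale. Its sh-Pfkp call failed on leaving out sh-ctrl replicate 3, or sh-Pfkp replicate 3 (adjusted p = 0.0688 and 0.0706), and its sh-Lin41 call on leaving out sh-ctrl replicate 3, or sh-Lin41 replicate 1 or 2 (adjusted p = 0.160, 0.115 and 0.0603).

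The ERG windows before the start are shown because these 3 genes were called lower with both hairpins. That choice serves display only, and the motif was not tested against the calls. Capitals mark the letters GGGCGG, the core of the GC box bound by SP factors, on either strand. The windows lie at chr5:24329592-24329841 (minus strand), chr11:106007898-106008147 (plus strand) and chr2:63184288-63184537 (minus strand), again in GRCm38.p6.
Kcnh2: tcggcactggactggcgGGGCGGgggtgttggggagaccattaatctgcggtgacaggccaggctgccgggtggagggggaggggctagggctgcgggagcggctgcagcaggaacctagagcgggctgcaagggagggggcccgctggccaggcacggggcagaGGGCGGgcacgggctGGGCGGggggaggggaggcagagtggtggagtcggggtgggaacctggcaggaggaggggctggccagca
Kcnh6: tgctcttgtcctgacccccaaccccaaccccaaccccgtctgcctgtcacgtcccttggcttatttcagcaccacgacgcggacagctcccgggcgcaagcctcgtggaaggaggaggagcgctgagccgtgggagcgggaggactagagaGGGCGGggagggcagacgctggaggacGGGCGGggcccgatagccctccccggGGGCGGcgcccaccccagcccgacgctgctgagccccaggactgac
Kcnh7: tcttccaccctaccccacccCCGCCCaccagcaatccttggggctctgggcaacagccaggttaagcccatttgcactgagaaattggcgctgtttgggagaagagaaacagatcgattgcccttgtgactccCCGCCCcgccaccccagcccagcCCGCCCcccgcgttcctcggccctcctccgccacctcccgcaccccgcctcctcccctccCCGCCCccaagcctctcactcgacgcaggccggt
GGGCGG occurred in 57.9% of 19 promoters of detected members, in 41.3% of 75 promoters of the other members and in 32.7% of all 32851 promoters of that length. Searches for ACGTG, the core of the hypoxia response element, found it in 5.26%, 17.3% and 16.6%, and for TTCAGCACC, the left portion of the element bound by Rest, in 5.26%, 0% and 0.301%. Its only match among the members was the Kcnh6 window. Both strands were searched for all 3 motifs, none of which contains another, and a match describes letters and not a bound site. GGGCGG holds only G and C, and the windows differed in these bases. Their median share was 62.0% over 15 detected genes, 58.8% over 48 genes with traces, 54.8% over 6 with 0 counts and 52.4% over all genes. Motif shares at like base content were not tested. The 19 promoters belong to 15 of the 26 detected genes, and each start counts once here.

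Kcnh3, an ELK-type member expressed mainly in forebrain, stood at 2.80, 3.77 and 3.44 CPM with the control hairpin, 1.32, 1.59 and 1.51 CPM with the Pfkp hairpin and 3.72, 3.33 and 3.19 CPM with the Lin41 hairpin. Only the sh-Pfkp libraries were low. Its changes were -1.17 ± 0.20 (adjusted p = 1.21e-05) and 0.04 ± 0.18 (adjusted p = 0.874), and the knockdowns differed by -1.21 ± 0.20 (adjusted p = 5.12e-06). Kcnh4, the remaining tested member, had changes of -0.76 ± 0.36 and -0.70 ± 0.36 that did not pass the test (adjusted p = 0.0748 and 0.0950).

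Kcnq3, a subunit of the neuronal M-current, was under 1 CPM in each group, with counts of 14, 4 and 12 in sh-ctrl, 16, 17 and 16 in sh-Pfkp and 8, 5 and 5 in sh-Lin41 libraries. It was called only between the knockdowns, at 1.50 ± 0.44 (adjusted p = 0.00411).

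Kcna7, the one detected Shaker-related gene, rested on few reads, with counts of 14, 25 and 14 in sh-ctrl, 4, 8 and 3 in sh-Pfkp and 19, 16 and 9 in sh-Lin41 libraries. Its log2 change with the Pfkp hairpin was the largest among the 34 tested members at -1.92 ± 0.46 (adjusted p = 7.30e-04). With the Lin41 hairpin it was -0.47 ± 0.37 (adjusted p = 0.298), and the knockdowns differed by -1.45 ± 0.48 (adjusted p = 0.0116). That difference failed on leaving out sh-Lin41 replicate 1, or sh-Pfkp replicate 3 (adjusted p = 0.0676 and 0.0545). Kcnc4, a further voltage-gated gene, and the silent subunit gene Kcns2 passed no test.

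**Figure D4:**
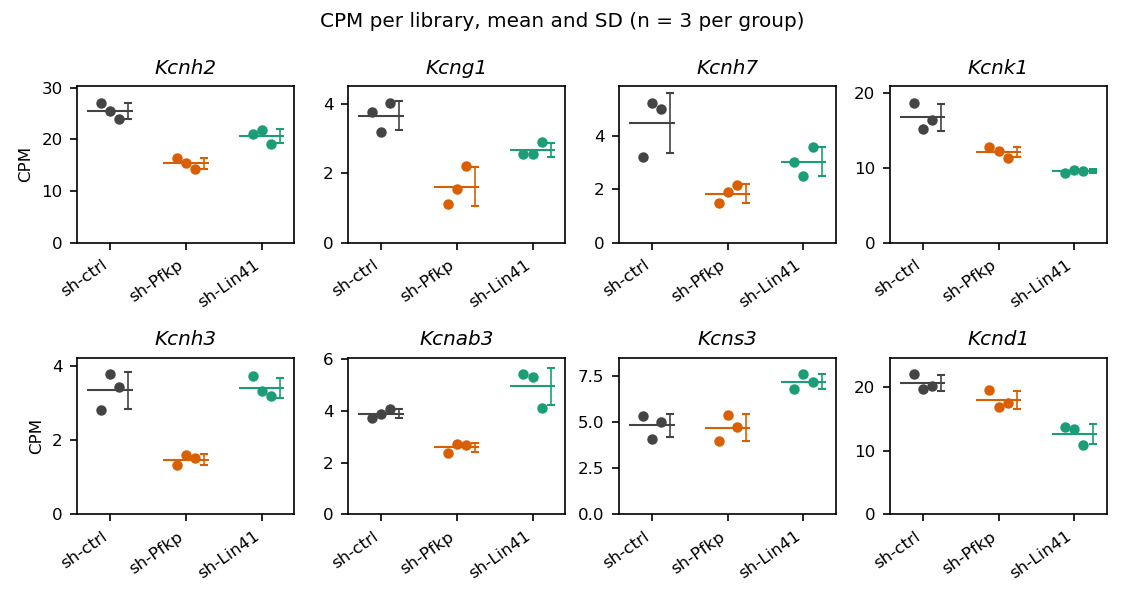
CPM per library (points), group mean (line) and SD (bar at the right of each group, n = 3) for 8 Kcn genes chosen after their values were seen to show the kinds of pattern. Kcnh2, Kcng1 and Kcnh7 have lower means with both hairpins and the lowest in sh-Pfkp, Kcnk1 and Kcnd1 are lowest in sh-Lin41, Kcnh3 and Kcnab3 are low in sh-Pfkp alone among the groups, and Kcns3 is high in sh-Lin41.

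Of 6 tested accessory and regulatory genes, 4 were called lower with the Pfkp hairpin and 1 with the Lin41 hairpin. Kcnab3, a cytoplasmic beta subunit with an aldo-keto reductase fold, stood at 3.72, 3.90 and 4.09 CPM with the control hairpin, 2.37, 2.72 and 2.68 CPM with the Pfkp hairpin and 5.42, 5.31 and 4.13 CPM with the Lin41 hairpin. The groups did not overlap, with sh-Pfkp lowest and sh-Lin41 highest. It fell with the Pfkp hairpin (-0.59 ± 0.17, adjusted p = 0.00361), its change with the Lin41 hairpin was 0.35 ± 0.15 (adjusted p = 0.0522), and the knockdowns differed by -0.94 ± 0.16 (adjusted p = 8.27e-06). In the GENCODE M21 annotation 13 of the 34 tested members share exon bases with another gene. Among the genes named here the share of exon bases under an opposite-strand gene is 31.1% for Kcnj3, 8.13% for Kcnn2, 8.01% for Kcnk1, 7.36% for Kcnip4, 5.13% for Kcnab3, where that gene is Kcnab3os, and 4.57% for Kcnh7. It is 2.88% for Kcnn1, 1.48% for Kcnt2 and 0.017% for Kcnh3. For Kcnk4, 13.1% of exon bases are shared with Catsperz and for Kcnab2 2.24% with Gm16334, each on the same strand. No source used here states the strand setting of the counting, so reads from bases shared across strands cannot be told apart. For bases shared on the same strand, that setting would not separate the reads. Kcnab2, a second beta subunit gene, had counts of 14, 9 and 22 in sh-ctrl and 3, 9 and 6 in sh-Pfkp libraries, a change of -1.41 ± 0.47 (adjusted p = 0.0116) that failed on leaving out sh-ctrl replicate 3, or sh-Pfkp replicate 1 (adjusted p = 0.108 and 0.0737). In the authors' deposited table its log2 change was -0.55.

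Kcnip2 and Kcnip3 encode calcium-binding partners of the Kcnd channels, and the Kcnip3 product is also known as the transcriptional repressor DREAM. Kcnip2 stood at 5.38, 5.05 and 5.95 CPM with the control hairpin, 2.74, 3.59 and 3.84 CPM with the Pfkp hairpin and 4.72, 4.44 and 4.40 CPM with the Lin41 hairpin. The groups were again separate, in the order sh-Pfkp, sh-Lin41 and sh-ctrl from low to high. Against sh-ctrl the Pfkp hairpin gave a called change of -0.69 ± 0.15 (adjusted p = 2.41e-04), and the knockdowns differed by -0.42 ± 0.15 (adjusted p = 0.0208). That difference failed on leaving out sh-Lin41 replicate 1, or sh-Pfkp replicate 1 (adjusted p = 0.0664 and 0.150). Kcnip3 fell with both hairpins, by 0.88 (adjusted p = 0.00709) and 0.72 (adjusted p = 0.0228) on the log2 scale. Its sh-Lin41 call failed on leaving out sh-ctrl replicate 1 or 3, or sh-Lin41 replicate 2 or 3 (adjusted p = 0.0782, 0.0685, 0.0811 and 0.0776). Kcnip4 and the regulator Kcnrg passed no test.

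Of 5 tested inward rectifier genes, 2 fell and 1 rose with the Pfkp hairpin. With the Lin41 hairpin their log2 changes ran from -0.90 to 0.23. None passed edgeR's quasi-likelihood test with Benjamini-Hochberg adjustment, and of the 5 Kcnj10 alone was under 0.05 before adjustment (adjusted p = 0.0602). Kcnj4, a strong rectifier of neurons, stood at 1.72, 2.30 and 2.51 CPM with the control hairpin, 1.37, 1.28 and 1.22 CPM with the Pfkp hairpin and 2.76, 1.88 and 3.08 CPM with the Lin41 hairpin. The sh-Pfkp libraries were the low group, with changes of -0.75 ± 0.25 against sh-ctrl (adjusted p = 0.0112) and -0.98 ± 0.24 against sh-Lin41 (adjusted p = 7.43e-04). The call against sh-ctrl failed on leaving out sh-ctrl replicate 3 (adjusted p = 0.0707).

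Kcnj12, the most read of the Kcnj genes, fell by 0.65 on the log2 scale with the Pfkp hairpin (adjusted p = 0.0187), with overlapping groups, and differed between the knockdowns by -0.58 ± 0.23 (adjusted p = 0.0321). The former failed on leaving out sh-ctrl replicate 2, or sh-Pfkp replicate 1 or 3 (adjusted p = 0.0923, 0.141 and 0.0590), and the latter on leaving out sh-Lin41 replicate 1, or sh-Pfkp replicate 1 or 3 (adjusted p = 0.158, 0.210 and 0.0912). Kcnj14 was the only one of the 5 tested Kcnj genes called higher with the Pfkp hairpin. Its counts were 16, 10 and 14 in sh-ctrl, 24, 32 and 20 in sh-Pfkp and 14, 11 and 14 in sh-Lin41 libraries. Its changes were 0.81 ± 0.31 against sh-ctrl (adjusted p = 0.0295) and 1.03 ± 0.32 against sh-Lin41 (adjusted p = 0.00633). The call against sh-ctrl failed on leaving out sh-ctrl replicate 2 or 3, or sh-Pfkp replicate 2 (adjusted p = 0.101, 0.0739 and 0.144). Kcnj3, a G protein-gated subunit, and Kcnj10, a glial channel, passed no test.

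Of the tandem-pore leak channels, Kcnk5, which opens at alkaline pH and serves in epithelial volume control, stood at 56.9, 55.0 and 50.1 CPM with the control hairpin, 54.6, 55.5 and 52.5 CPM with the Pfkp hairpin and 45.6, 47.7 and 46.8 CPM with the Lin41 hairpin. The sh-Lin41 libraries were below all others. Against sh-ctrl they were lower by 0.21 on the log2 scale (adjusted p = 3.81e-04), whereas the sh-Pfkp change was 0.01 ± 0.05 (adjusted p = 0.900). The knockdowns differed by 0.22 ± 0.05 (adjusted p = 2.01e-04). Kcnk1, a weakly rectifying leak channel gene, stood at 18.7, 15.2 and 16.4 CPM with the control hairpin, 12.7, 12.3 and 11.3 CPM with the Pfkp hairpin and 9.34, 9.79 and 9.58 CPM with the Lin41 hairpin. The groups were separate, with sh-Lin41 lowest, and the changes were -0.47 ± 0.09 (adjusted p = 4.62e-05) and -0.81 ± 0.09 (adjusted p = 6.61e-09). Kcnk5 and Kcnk1, the 2 members highest in FPKM, were thus both lower in sh-Lin41 than in sh-Pfkp libraries (Kcnk1 by 0.34 ± 0.10, adjusted p = 0.00310), whereas Kcnh2, the next in FPKM, was lower in sh-Pfkp libraries. Kcnk6 fell by 0.42 with the Pfkp hairpin (adjusted p = 0.0172), a call that failed on leaving out sh-ctrl replicate 2, or sh-Pfkp replicate 1 (adjusted p = 0.246 and 0.0983). Kcnk4, a mechanically gated member, passed no test.

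Of the small-conductance calcium-activated channels, Kcnn1 stood at 5.09, 4.16 and 3.82 CPM with the control hairpin, 2.90, 2.26 and 1.69 CPM with the Pfkp hairpin and 3.77, 3.23 and 2.92 CPM with the Lin41 hairpin. The groups were separate, with sh-Pfkp lowest and sh-ctrl highest, by narrow gaps on both sides of sh-Lin41. Levels fell with the Pfkp hairpin (-0.92 ± 0.19, adjusted p = 1.21e-04), the sh-Lin41 change was -0.39 ± 0.18 (adjusted p = 0.0604), and the knockdowns differed by -0.53 ± 0.20 (adjusted p = 0.0220). That difference failed on leaving out sh-Lin41 replicate 1, or sh-Pfkp replicate 2 or 3 (adjusted p = 0.110, 0.0575 and 0.148). On log2(FPKM + 0.1) the sh-Pfkp change of Kcnn1 was -0.57 and did not pass with limma-trend (adjusted p = 0.0992). Kcnn2, at 3.82 ± 0.248, 3.25 ± 0.244 and 4.17 ± 1.09 CPM (mean ± SD, n = 3) in sh-ctrl, sh-Pfkp and sh-Lin41, and the sodium-activated Kcnt2, at 2.54 ± 0.498, 2.47 ± 0.127 and 2.28 ± 0.361 CPM, passed no test.

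Below the test's reach were 52 members with 1 to 59 counts over all 9 libraries together. The remaining Kcna genes (Kcna1 to Kcna6) had 4 to 37 counts, and the 9 remaining Kcnj genes (Kcnj2, Kcnj5, Kcnj6, Kcnj8, Kcnj9, Kcnj11, Kcnj13, Kcnj15 and Kcnj16) 2 to 32. Kcnk2, Kcnk3, Kcnk7, Kcnk9, Kcnk12, Kcnk13 and Kcnk18 had 1 to 45 counts. Kcnh1, Kcnh5 and Kcnh8 had 17 to 49, Kcnd2 and Kcnd3 30 to 53, Kcnn3 and Kcnn4 27 to 33, and Kcnc1 and Kcnc2 19 each. Kcnq5 had 59, Kcnt1 52, Kcnf1 47, Kcnab1 46, Kcnu1 43, Kcnma1 18, Kcns1 12 and Kcnb2 2 counts. The silent Kcng2, Kcng3 and Kcng4 had 10 to 25 counts and Kcnv1 and Kcnv2 4 to 9. The accessory genes Kcne1l, Kcne2, Kcne3 and Kcne4 had 2 to 22 counts, with Kcne2 the highest, and Kcnmb1 to Kcnmb4 1 to 26, with Kcnmb4 the highest. These genes were not tested between groups.

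In the authors' deposited table, with their FDR under 0.05 and a log2 change beyond 1, 6 Kcn genes were lower with the Pfkp hairpin (Kcna7, Kcng1, Kcnh3, Kcnh7 and Kcnip2 among them), 1 was lower with the Lin41 hairpin and 0 were higher. The share of all genes past that filter was not computed, so these counts are not read as particular to the Kcn genes. The 2-fold list from counts given above holds Kcnab2 in place of Kcnip2.

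Potassium pumps, cotransporters and related channels outside the Kcn names changed in both directions. Of 18 tested genes of 24 listed, 4 were higher and 10 lower with the Pfkp hairpin, and 4 were higher and 9 lower with the Lin41 hairpin, beside the same shares of all tested genes (28.3% each way, and 26.9% higher and 27.3% lower). Slc12a2, which carries sodium, potassium and chloride into cells, rose by 0.68 ± 0.04 (adjusted p = 3.85e-16) and 0.47 ± 0.04 (adjusted p = 4.23e-12). Its direction was opposite to that of most called genes of this list.

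Of 8 tested partner and sensor genes, 1 was higher and 3 were lower with each hairpin, beside the same background. The 2 with the smallest adjusted p are given for each hairpin. With the Pfkp hairpin Calm3, a calmodulin gene, changed by -0.22 ± 0.03 (adjusted p = 2.61e-08) and Ank3, an ankyrin that anchors channels at the axon initial segment, by -0.57 ± 0.08 (adjusted p = 9.97e-08). With the Lin41 hairpin Calm3 changed by -0.26 ± 0.03 (adjusted p = 4.67e-10) and Akap9, a kinase anchor, by 0.36 ± 0.04 (adjusted p = 3.20e-08). Among 11 regulators, 4 were higher and 4 lower with the Pfkp hairpin, near the shares of all genes, and the smallest adjusted p were those of Slmap (0.30 ± 0.03, adjusted p = 3.78e-11) and the ubiquitin ligase gene Nedd4l (-0.46 ± 0.05, adjusted p = 2.08e-09). The largest change was that of the kinase gene Stk39 (-1.24 ± 0.14, adjusted p = 4.56e-09). With the Lin41 hairpin 3 were higher and 5 lower, beside 26.9% and 27.3% of all tested genes. The smallest adjusted p there were those of the ion transport kinase genes Wnk1 (0.34 ± 0.02, adjusted p = 1.16e-17) and Wnk3 (-0.65 ± 0.04, adjusted p = 8.61e-16).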

How the data were processed

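RNA-seq of 9 libraries (3 per group) was analysed from the deposited tables. Per the labels' protocols, total RNA was taken up with Trizol and libraries made with the NEBNext Ultra kit. Per the submitters' processing notes, the tools were RSEM, StringTie 1.3.1, HISAT2, Bowtie2 2.2.8 and fastp 0.18.0. No source used here gives the genome build, annotation or strand setting. Per the file headers, the tables hold counts per gene, FPKM, and the authors' log2 fold changes with p-values and FDR for each knockdown against control. The deposited counts are whole numbers, and no source used here names the tool behind the deposited p-values.

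From the counts, edgeR 4.0.16 (R 4.3.3) kept genes passing filterByExpr by group, scaled by TMM, and fitted 1 quasi-likelihood model over the 9 libraries with 6 residual degrees of freedom. P-values were adjusted over all tested genes by Benjamini-Hochberg, and genes under 0.05 were called, with no minimum fold. CPM values use TMM-scaled library sizes, and fold changes are given with standard errors. FPKM was used only to compare levels between genes and in limma 3.58.1 as an alternative. DESeq2 1.42.0, other scalings and filters, the replicate block and leaving out each library were also tried. The scripts were tested on simulated data. Replicate libraries differed by more than sampling noise and were not counted as duplicates.

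Named genes were those with the highest mean CPM of each subfamily, the 8 called members with the smallest adjusted p in each comparison, called members with a 2-fold change, and members with a mean of at least 10 CPM in a group; other called or tested members are named beside them. A few genes that this rule names are not reported here and are left out of the plots by gene; they remain in the counts. Members and lists were chosen with earlier results of these data known. Promoter sequences came from RefSeq (GRCm38.p6), where 69 of 94 members matched, and exon overlaps from GENCODE M21, which may differ from the annotation behind the counts.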

Additional observations from a re-analysis of the deposited data

How the results depend on the processing

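No called member reversed direction under any alternative run. Calls that held in every alternative run testing the gene were 11 of 21 with the Pfkp hairpin and 8 of 12 with the Lin41 hairpin. Between the knockdowns they were 10 of 18. The Kcna7 call with the Pfkp hairpin held in the 18 runs that tested the gene, where Kcnh2 was tested in 19. Without each library in turn, 13, 8 and 13 calls held, in the same order. Requiring a 2-fold change left 0 higher and 6 lower members with the Pfkp hairpin, 0 and 1 with the Lin41 hairpin, and 2 and 2 between the knockdowns. The shares of all genes at 2-fold are those given above. With DESeq2, 1 of 72 tested members was higher and 14 were lower with the Pfkp hairpin, beside 20.7% and 19.0% of all tested genes. In that run 6 of 50 were lower with the Lin41 hairpin, beside 20.8%. Without a filter on low counts, 4 of 86 members were higher and 19 were lower with the Pfkp hairpin, beside 21.8% and 20.9% of all genes. In the direct comparison of sh-Pfkp with sh-Lin41, 8 of 86 were then higher and 14 lower, beside 20.5% each way. Leaving out 1 library at a time gave 0 to 3 higher and 15 to 19 lower with the Pfkp hairpin, where 0 were higher without sh-ctrl replicate 2 and 1 without sh-Pfkp replicate 2. It gave 2 to 3 higher and 6 to 13 lower with the Lin41 hairpin, and 5 to 7 higher and 10 to 14 lower between the knockdowns. On log2(FPKM + 1) with limma-trend, 19.1% of all tested genes were higher and 28.9% lower with the Pfkp hairpin. Of 34 members, 2 were higher and 15 lower in that run. Counting a member as detected from 1 read in 1 library gave 86 members, and from a mean of 0.1 FPKM 49.

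Same-numbered libraries did not deviate together in every pair (correlations across genes of -0.002, 0.105 and 0.078 for sh-Pfkp and sh-ctrl), so the numbers were not taken as pairing. Among 4229 genes of at least 50 CPM these correlations were -0.122, -0.060 and -0.004. There, same-numbered sh-Lin41 and sh-ctrl libraries all correlated positively (0.128, 0.106 and 0.065), so pairing between those groups is not excluded. With the replicate block, the counts of higher and lower members were 2 and 19 with the Pfkp hairpin, 2 and 12 with the Lin41 hairpin and 5 and 13 between the knockdowns. That run tested 34 members, and 26.8 to 28.3% of all tested genes were called in each direction. Depth limits the 52 members with too few counts for a test.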

Other observations

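Some members below the test's reach differed in reads between groups, and are given as values with no test; they were chosen after their values were seen. Kcnj16, a subunit that pairs with Kcnj10 in kidney and glia, had counts of 1, 2 and 0 in sh-ctrl, 8, 5 and 6 in sh-Pfkp and 4, 3 and 3 in sh-Lin41 libraries. Kcnq5, a further M-current subunit gene, had 1, 2 and 8 in sh-ctrl, 9, 13 and 13 in sh-Pfkp and 2, 4 and 7 in sh-Lin41. Kcnd3, an A-type channel gene of heart and brain, had 3, 0 and 6 in sh-ctrl, 5, 0 and 5 in sh-Pfkp and 16, 10 and 8 in sh-Lin41, with the sh-Lin41 libraries highest. The silent subunit gene Kcnf1 had 2, 7 and 6 in sh-ctrl, 8, 11 and 6 in sh-Pfkp and 2, 3 and 2 in sh-Lin41.

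Kcnip2 moved more in FPKM than in counts, unlike Kcnn1. Its deposited FPKM values were 4.14, 2.98 and 4.32 in sh-ctrl, 1.50, 1.97 and 2.03 in sh-Pfkp and 3.22, 2.56 and 2.75 in sh-Lin41 libraries. The log2 change with the Pfkp hairpin was -1.01 on log2(FPKM + 0.1) and -0.69 from counts.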
